A study of Homo sapiens with 21 samples.

Results

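The genes described here encode fibronectin and 9 further secreted proteins of the extracellular matrix, most of them matricellular: FN1, SPARC, THBS1, THBS2, TNC, POSTN, FBN1, TGFBI, VCAN and FBLN1. They were found by matching the Ensembl identifiers of the count files to these symbols, and all 10 were present among 53515 genes. RNA was sequenced from 17 human cancer cell lines in 21 libraries, to compare treatment-resistant cell lines with the untreated parental lines from which they had been derived by rising drug doses in culture. HepG2, of the liver, gave rise to HepG2S1 and HepG2S3 under sorafenib, and PancVB, of the pancreas, to PancB1Q and PancB1V under 5-fluorouracil. Of the lung lines, HCC4006P1 gave the erlotinib-resistant HCC4006ER, HCC4006P2 gave the gefitinib-resistant HCC4006GR, and HCC827P gave the gefitinib-resistant HCC827GR. Of the ovarian lines, UWB1.289 gave U10 and U100, which resist olaparib, and IGROV-1 gave IGROV-1/CDDP, which resists cisplatin. Only the pairs HepG2S3 with HepG2 and HCC4006ER with HCC4006P1 had replicates on both sides, with 2 libraries for each of these 4 lines and 1 for each of the remaining 13. The labels do not say whether replicate libraries came from separate cultures, so p-values measure only the spread between these libraries, which may be technical. Resistant lines of 1 parent share that parent's libraries, and the study chose its pairs from reports of EMT-like change, so the lines are no random sample of resistance.

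Fibronectin is a large glycoprotein that cells assemble into fibrils through integrin α5β1, and it is a classical marker of epithelial-to-mesenchymal transition (EMT). Matricellular proteins such as SPARC, the thrombospondins, tenascin-C and periostin are secreted into the matrix but mainly modulate how cells adhere, migrate and respond to growth factors. Fibrillin-1 and fibulin-1 belong to the microfibril and elastic fibre system, versican is a chondroitin sulfate proteoglycan that binds hyaluronan, and TGFBI is a fasciclin-domain protein named for its induction by TGF-β. FN1, SPARC and VCAN also belong to the mesenchymal genes on which the study judged its lines, so their direction is not independent of that judgement.

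The libraries held between 9851195 and 36639473 counts on genes, and levels are given as CPM, the counts of a gene scaled to a fixed total of counts on genes. A count of 3 was the floor for lines with 0 counts and corresponds to between 0.0819 and 0.305 CPM. Folds given as at least for such lines set the mean of the other line against this floor. They hold only for levels at or below it and leave out the spread of the other line. The counting interval at 0 counts reaches above the floor, to 0.39 CPM in HepG2S1. HCC4006P1 replicate 1 had no counts from position 30620149 of chromosome 7 (GRCh37) onwards in the alphabetical order of chromosomes, a stretch that held 18.1% of the counts of replicate 2. TNC lies in this stretch and was taken from replicate 2 only, and CPM of the other genes in replicate 1 are raised by 22.1%. Markers of the labelled tissues did not always follow the labels. The 7 hepatocyte markers summed to 46086 and 31197 CPM in HepG2 but to 0.609 CPM in HepG2S1 and to 32.0 and 35.5 CPM in HepG2S3, in which all of ALB, APOB, AFP and SERPINA1 were below 10 CPM. The lung marker NKX2-1 was at 113 CPM in HCC4006P2 and at 0.0802 CPM in HCC4006P1, although both carry the same cell line name. The identity of HepG2S1, HepG2S3 and HCC4006P1 was not tested here, so their relation to the labelled parent or namesake rests here on the labels. Differences from HepG2 below hold for the lines as labelled. By low-coverage genome sequencing, the study reported only small copy number differences within its pairs, apart from those derived from HepG2. PAX8 was between 357 and 664 CPM in the ovarian lines, but WT1 was below 1 CPM in all of them. The 4 haematopoietic markers summed to at most 11.6 CPM in any library, the 3 endothelial markers to at most 89.0 CPM, and CD3E was at or below 0.0662 CPM in every line.

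Promoter sequences of 4 genes are shown because FN1, SPARC and the thrombospondins are described in most detail below. Each runs 5′ to 3′ on the gene's strand, from 250 bases before to 50 bases after the start site annotated by RefSeq (GRCh38.p14), and was placed on GRCh37 by an exact match. The windows were chr2:216300742-216301041 (minus strand) for FN1, chr5:151066427-151066726 (minus strand) for SPARC, chr15:39873030-39873329 (plus strand) for THBS1 and chr6:169653892-169654191 (minus strand) for THBS2. Capitals mark matches to 6 motifs searched on both strands: the cyclic AMP response element TGACGTCA, the AP-1 site TGANTCA, the E-box CACCTG, the TEAD motif GGAATG, the TATA box TATAAA and the CCAAT box CCAAT.
FN1 promoter: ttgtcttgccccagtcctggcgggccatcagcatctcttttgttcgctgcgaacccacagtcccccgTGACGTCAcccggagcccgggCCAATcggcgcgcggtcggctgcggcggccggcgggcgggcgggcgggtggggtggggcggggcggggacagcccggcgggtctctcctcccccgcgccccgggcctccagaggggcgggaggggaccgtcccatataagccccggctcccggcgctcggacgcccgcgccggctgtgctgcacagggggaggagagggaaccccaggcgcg
SPARC promoter: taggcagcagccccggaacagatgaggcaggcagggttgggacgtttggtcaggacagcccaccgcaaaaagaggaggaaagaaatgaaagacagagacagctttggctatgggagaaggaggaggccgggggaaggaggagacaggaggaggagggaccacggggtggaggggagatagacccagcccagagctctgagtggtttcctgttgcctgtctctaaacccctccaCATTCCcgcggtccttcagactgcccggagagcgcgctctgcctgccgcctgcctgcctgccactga
THBS1 promoter: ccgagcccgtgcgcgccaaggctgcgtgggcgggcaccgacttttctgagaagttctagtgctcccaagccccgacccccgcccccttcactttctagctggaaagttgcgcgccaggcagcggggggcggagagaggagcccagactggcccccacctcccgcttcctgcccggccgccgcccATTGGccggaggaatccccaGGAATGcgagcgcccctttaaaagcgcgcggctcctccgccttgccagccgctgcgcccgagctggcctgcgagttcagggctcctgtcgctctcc
THBS2 promoter: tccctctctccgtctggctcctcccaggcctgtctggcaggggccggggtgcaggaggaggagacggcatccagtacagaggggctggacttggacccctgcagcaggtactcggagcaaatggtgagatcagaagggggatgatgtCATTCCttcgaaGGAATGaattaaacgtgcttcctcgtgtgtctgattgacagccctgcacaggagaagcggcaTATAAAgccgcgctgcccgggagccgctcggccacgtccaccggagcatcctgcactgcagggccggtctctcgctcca

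FN1 held a cyclic AMP response element from position −183 relative to its start site and a CCAAT box from position −162. The cyclic AMP response element was found in 1.98% of 27305 promoter windows and, of the 10 genes, only in FN1. The TEAD motif was found in SPARC, THBS1, THBS2, with a copy on each strand, and FBN1, against 14% of all windows. THBS2 and POSTN had a TATA box at position −29, a motif present in 12% of windows, and POSTN also had an AP-1 site, which 7.76% of windows held. A CCAAT box stood in FN1 and THBS1 and in 35.7% of windows. The E-box CACCTG, bound by SNAI1 and ZEB1, was in 20.6% of windows and in 0 of the 10, and none of the 6 motifs was in the windows of TNC, TGFBI, VCAN or FBLN1. These matches describe the letters only, and binding was not measured.

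**Figure D1:**
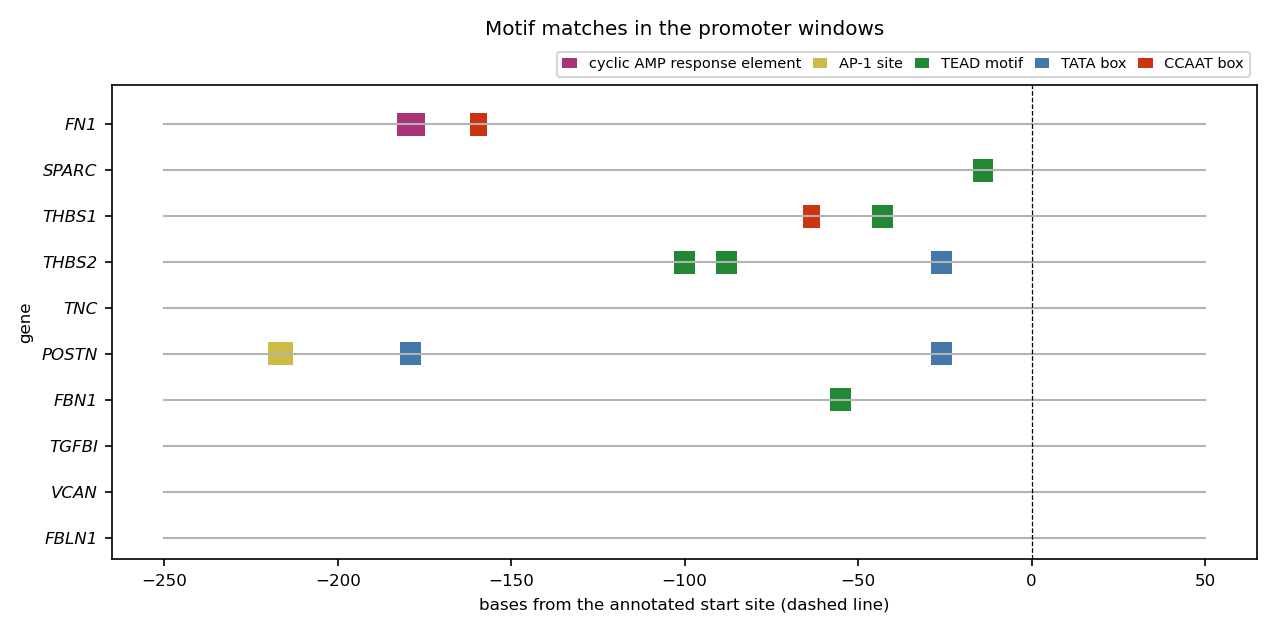
Positions of the motif matches in the promoter windows of the 10 genes, in bases from the annotated start site, with one horizontal line per gene and one coloured block per match. The cyclic AMP response element of FN1 and the AP-1 site of POSTN were the only matches of their kind.

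FN1 (ENSG00000115414, chr2:216225163-216300796, minus strand) was highest in a parental line, HepG2. It was at 16759 and 14586 CPM in the HepG2 libraries, at 138 CPM in HepG2S1 and at 287 and 285 CPM in HepG2S3. FN1 thus made up 1.68% and 1.46% of all counts of the parental liver line, and its level in the resistant lines was 113-fold and 54.8-fold lower. In the lung, HCC4006P1 had 194 and 107 CPM and HCC4006ER had 1353 and 1477 CPM, a mean difference of 9.42-fold with no overlap. HCC4006P2 had 77.1 CPM against 169 CPM in HCC4006GR, and HCC827P had 216 CPM against 506 CPM in HCC827GR. The pancreatic PancVB had 138 CPM, with 373 CPM in PancB1Q and 202 CPM in PancB1V, the latter 1.46-fold higher (counting interval 1.37 to 1.55). UWB1.289 had 1169 CPM, U10 had 8186 CPM and U100 had 5449 CPM, and IGROV-1 had 29.7 CPM against 227 CPM in IGROV-1/CDDP. FN1 was therefore higher in the resistant line in 8 of 10 pairs, 7 of them by at least 2-fold, and lower in both lines labelled as derived from HepG2. FN1 was above 10 CPM in all 17 lines. When the lines were ordered by its level, 4 pairs of neighbours had overlapping ranges, which for lines with 1 library cover counting error only.

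SPARC (ENSG00000113140, chr5:151040657-151066536, minus strand), a collagen-binding glycoprotein also called osteonectin, differed most in HCC4006ER. It had 4 and 10 counts in the HCC4006P1 libraries, or 0.214 and 0.513 CPM, and 7270 and 7029 CPM in HCC4006ER. SPARC went from near the detection floor to 0.727% and 0.703% of all counts there. HCC4006P2, by contrast, already had 414 CPM, and HCC4006GR had 1558 CPM, a 3.77-fold difference. In the pancreatic lines it was at 3.41 CPM in PancVB, 324 CPM in PancB1Q and 252 CPM in PancB1V, or 95-fold and 73.9-fold higher. The 8 fibroblast markers summed to at most 6.17 CPM in these lines, and their part was not tested. The HepG2 libraries had 78.6 and 40.0 CPM, and HepG2S3 had 6 and 2 counts. HepG2S1 had 0 of 9851195 counts, with the floor at 0.305 CPM and a counting interval up to 0.39 CPM. From the parental mean and this floor, SPARC was at least 195-fold lower in HepG2S1. In HepG2S3 it was 469-fold lower (counting interval 230 to 952). UWB1.289 had 236 CPM, U10 had 500 CPM and U100 had 424 CPM. In HCC827P (16 counts) and HCC827GR (4 counts) and in IGROV-1 (12 counts) and IGROV-1/CDDP (11 counts) SPARC was below 1 CPM. The counting intervals overlapped within each of these pairs. A long noncoding gene on the other strand, CLMAT3, overlaps SPARC but had at most 29 counts in a library.

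THBS1 (ENSG00000137801, chr15:39873280-39891667, plus strand) encodes thrombospondin-1, an inhibitor of angiogenesis that can activate latent TGF-β. It was highest in a parental line, PancVB, with 3337 CPM, and was 4.39-fold lower in PancB1Q (760 CPM) and 9.48-fold lower in PancB1V (352 CPM). HCC4006P1 had 1998 and 2171 CPM and HCC4006ER had 672 and 751 CPM, without overlap. The HepG2 libraries differed from each other, at 574 and 203 CPM, against 202 CPM in HepG2S1 and 101 and 160 CPM in HepG2S3. Replicate 2 of HepG2 was thus level with HepG2S1. THBS1 was higher in the resistant line in HCC827GR (102 against 31.9 CPM) and in IGROV-1/CDDP (9.61 against 2.51 CPM), and differed by less than 2-fold in HCC4006GR (2078 against 1602 CPM), U10 (1146 against 656 CPM) and U100 (679 CPM). The sign of its change in U100 turned with TMM-scaled library sizes.

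THBS2 (ENSG00000186340, chr6:169615875-169654145, minus strand), the related thrombospondin-2, stayed below 50 CPM in every line. It was at 3.08 CPM in PancVB and at 42.8 and 42.4 CPM in PancB1Q and PancB1V, whose intervals overlapped. HCC4006P1 had 0 and 4 counts and HCC4006ER had 53 and 39 counts, while HCC4006P2 had 4 counts and HCC4006GR had 86. HCC827P had 3.63 CPM against 14.6 CPM in HCC827GR. All 5 of these lines were higher than their parent, at counts from 39 to 1221 in the resistant libraries. In the ovarian lines the direction was the opposite. UWB1.289 had 23 counts, U10 had 0 and U100 had 1, so that THBS2 was at least 6.77-fold lower in U10 and 25.9-fold lower in U100, on 1 count (counting interval 3.05 to 221), and IGROV-1/CDDP had 17 counts against 46. HepG2 had 32 and 139 counts, HepG2S1 had 3, and HepG2S3 had 14 and 18. In the pancreatic pairs and in HCC4006ER, THBS1 and THBS2 thus differed in opposite directions, by at least 2-fold each.

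TNC (ENSG00000041982, chr9:117781854-117880486, minus strand), tenascin-C, a hexameric glycoprotein of remodelling tissue, was above 100 CPM in 11 lines and between 0.0728 and 21.7 CPM in the others. PancVB had 21.7 CPM, with 299 CPM in PancB1Q (13.8-fold higher) and 352 CPM in PancB1V (16.2-fold higher). HepG2 had 0 and 7 counts, HepG2S1 had 1 count, and HepG2S3 had 362 and 178 counts, or 11.3 and 5.81 CPM. TNC was thus 85.2-fold higher in HepG2S3 (counting interval 39.2 to 198), while the ratio in HepG2S1 was 1.01 with an interval from 0.0886 to 12.1. UWB1.289 had 331 CPM, U10 had 1115 CPM and U100 had 393 CPM, so that U10 was 3.37-fold and U100 1.19-fold higher. In the lung, HCC4006P1 replicate 2 had 351 CPM against 387 and 435 CPM in HCC4006ER, and HCC4006P2 had 906 CPM against 1520 CPM in HCC4006GR. HCC827GR, with 846 CPM against 1579 CPM in HCC827P, was the only resistant line with less TNC than its parent beyond counting error, at 1.87-fold lower. The sign in HepG2S1, on 1 count, turned with TMM-scaled library sizes. IGROV-1 and IGROV-1/CDDP had 2 and 5 counts.

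POSTN (ENSG00000133110, chr13:38136720-38172981, minus strand), periostin, a fasciclin-domain protein made mainly by fibroblasts, had 0 counts in 9 libraries and reached 1 CPM in 2 lines. U10 had 62 counts (6.05 CPM) against 3 in UWB1.289 and 8 in U100, and IGROV-1 had 146 counts (5.31 CPM) against 1 in IGROV-1/CDDP. These were a 23.4-fold higher level in U10 (counting interval 6.21 to 88.3) and a 134-fold lower one in IGROV-1/CDDP, on 1 count (20.2 to 895). HCC4006ER had 16 counts in each library against 2 and 0 in HCC4006P1.

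TGFBI (ENSG00000120708, chr5:135364677-135399507, plus strand), the other fasciclin-domain protein, was at least 2-fold lower in 5 resistant lines. It was at 187 CPM in PancVB, 52.4 CPM in PancB1Q and 23.1 CPM in PancB1V, and at 2201 CPM in HCC827P against 740 CPM in HCC827GR. UWB1.289 had 281 CPM, U10 had 137 CPM and U100 had 133 CPM. These 5 lines were lower by between 2.06-fold and 8.10-fold. The HCC4006 lines went the other way, with 1337 and 914 CPM in HCC4006P1 against 1934 and 1786 CPM in HCC4006ER, and 1817 CPM in HCC4006P2 against 4605 CPM in HCC4006GR, the highest level of all lines. In HepG2 the libraries were at 696 and 215 CPM, and HepG2S1 (250 CPM) and HepG2S3 (285 and 211 CPM) lay between or just below them. IGROV-1 and IGROV-1/CDDP had 10 and 6 counts.

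FBN1 (ENSG00000166147, chr15:48700510-48937918, minus strand) encodes fibrillin-1, the backbone of microfibrils, which is mutated in Marfan syndrome. HepG2 had 2.24 and 4.79 CPM, HepG2S1 had 208 CPM and HepG2S3 had 63.7 and 65.8 CPM. FBN1 was thus 59.2-fold and 18.4-fold higher in the lines in which FN1, SPARC and VCAN were lower. It was also higher in U10 (104 against 18.8 CPM), HCC827GR (7.91 against 1.5 CPM) and HCC4006GR (327 against 139 CPM). U100 (7.86 CPM) and IGROV-1/CDDP (58.9 against 216 CPM in IGROV-1) were lower by 2.39-fold and 3.66-fold. HCC4006P1 had 313 and 256 CPM and HCC4006ER had 319 and 303 CPM, an overlap that rests on replicate 1 of HCC4006P1, whose CPM are raised by 22.1%. The edgeR test below, with library sizes free of the missing stretch, did not call FBN1. PancB1Q and PancB1V had 45.6 and 42.3 CPM against 73.6 CPM in PancVB.

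FBLN1 (ENSG00000077942, chr22:45898118-45997015, plus strand), fibulin-1, a fibronectin-binding protein of the elastic fibre system, was at 151 and 79.1 CPM in HepG2, 238 CPM in HepG2S1 and 528 and 529 CPM in HepG2S3. In contrast, it was at 102 and 80.3 CPM in HCC4006P1 and at 9.31 and 8.68 CPM in HCC4006ER, a 10.1-fold lower mean, and at 19.9 CPM in HCC4006P2 against 9.80 CPM in HCC4006GR. The liver and HCC4006 lines therefore differed in opposite directions. U10 and U100 had 13.5 and 12.4 CPM against 4.13 CPM in UWB1.289, and HCC827GR had 4.57 CPM against 1.27 CPM in HCC827P. PancVB, PancB1Q and PancB1V had 1.15, 2.14 and 2.09 CPM, with overlapping counting intervals, and IGROV-1 and IGROV-1/CDDP had 36.1 and 32.9 CPM.

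VCAN (ENSG00000038427, chr5:82767437-82878122, plus strand), versican, was at 48.0 and 180 CPM in HepG2, at 0 counts in HepG2S1 and at 9 and 1 counts in HepG2S3. This was at least 375-fold lower in HepG2S1 and 727-fold lower in HepG2S3 (counting interval 375 to 1326), although the parental libraries differed from each other. PancVB had 7.83 CPM, with 174 CPM in PancB1Q (22.2-fold higher) and 122 CPM in PancB1V (15.5-fold higher). HCC4006P1 had 46.5 and 27.8 CPM against 126 and 88.4 CPM in HCC4006ER, HCC4006P2 had 113 CPM against 428 CPM in HCC4006GR, and HCC827P had 178 CPM against 800 CPM in HCC827GR. VCAN was thus higher in all 5 pancreatic and lung resistant lines, by between 2.89-fold and 22.2-fold. The ovarian lines were mixed, with 11.8 CPM in UWB1.289, 72.6 CPM in U10 and 6.10 CPM in U100, and with 617 CPM in IGROV-1 against 251 CPM in IGROV-1/CDDP. The genes on the other strand that overlap THBS1 (FSIP1), THBS2 (THBS2-AS1), TNC (DELEC1) and VCAN (VCAN-AS1) had at most 83, 22, 74 and 50 counts in a library. The strand setting of the counting is not given in the sources used here, so reads from these partners cannot be told apart where they overlap.

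**Figure D2:**
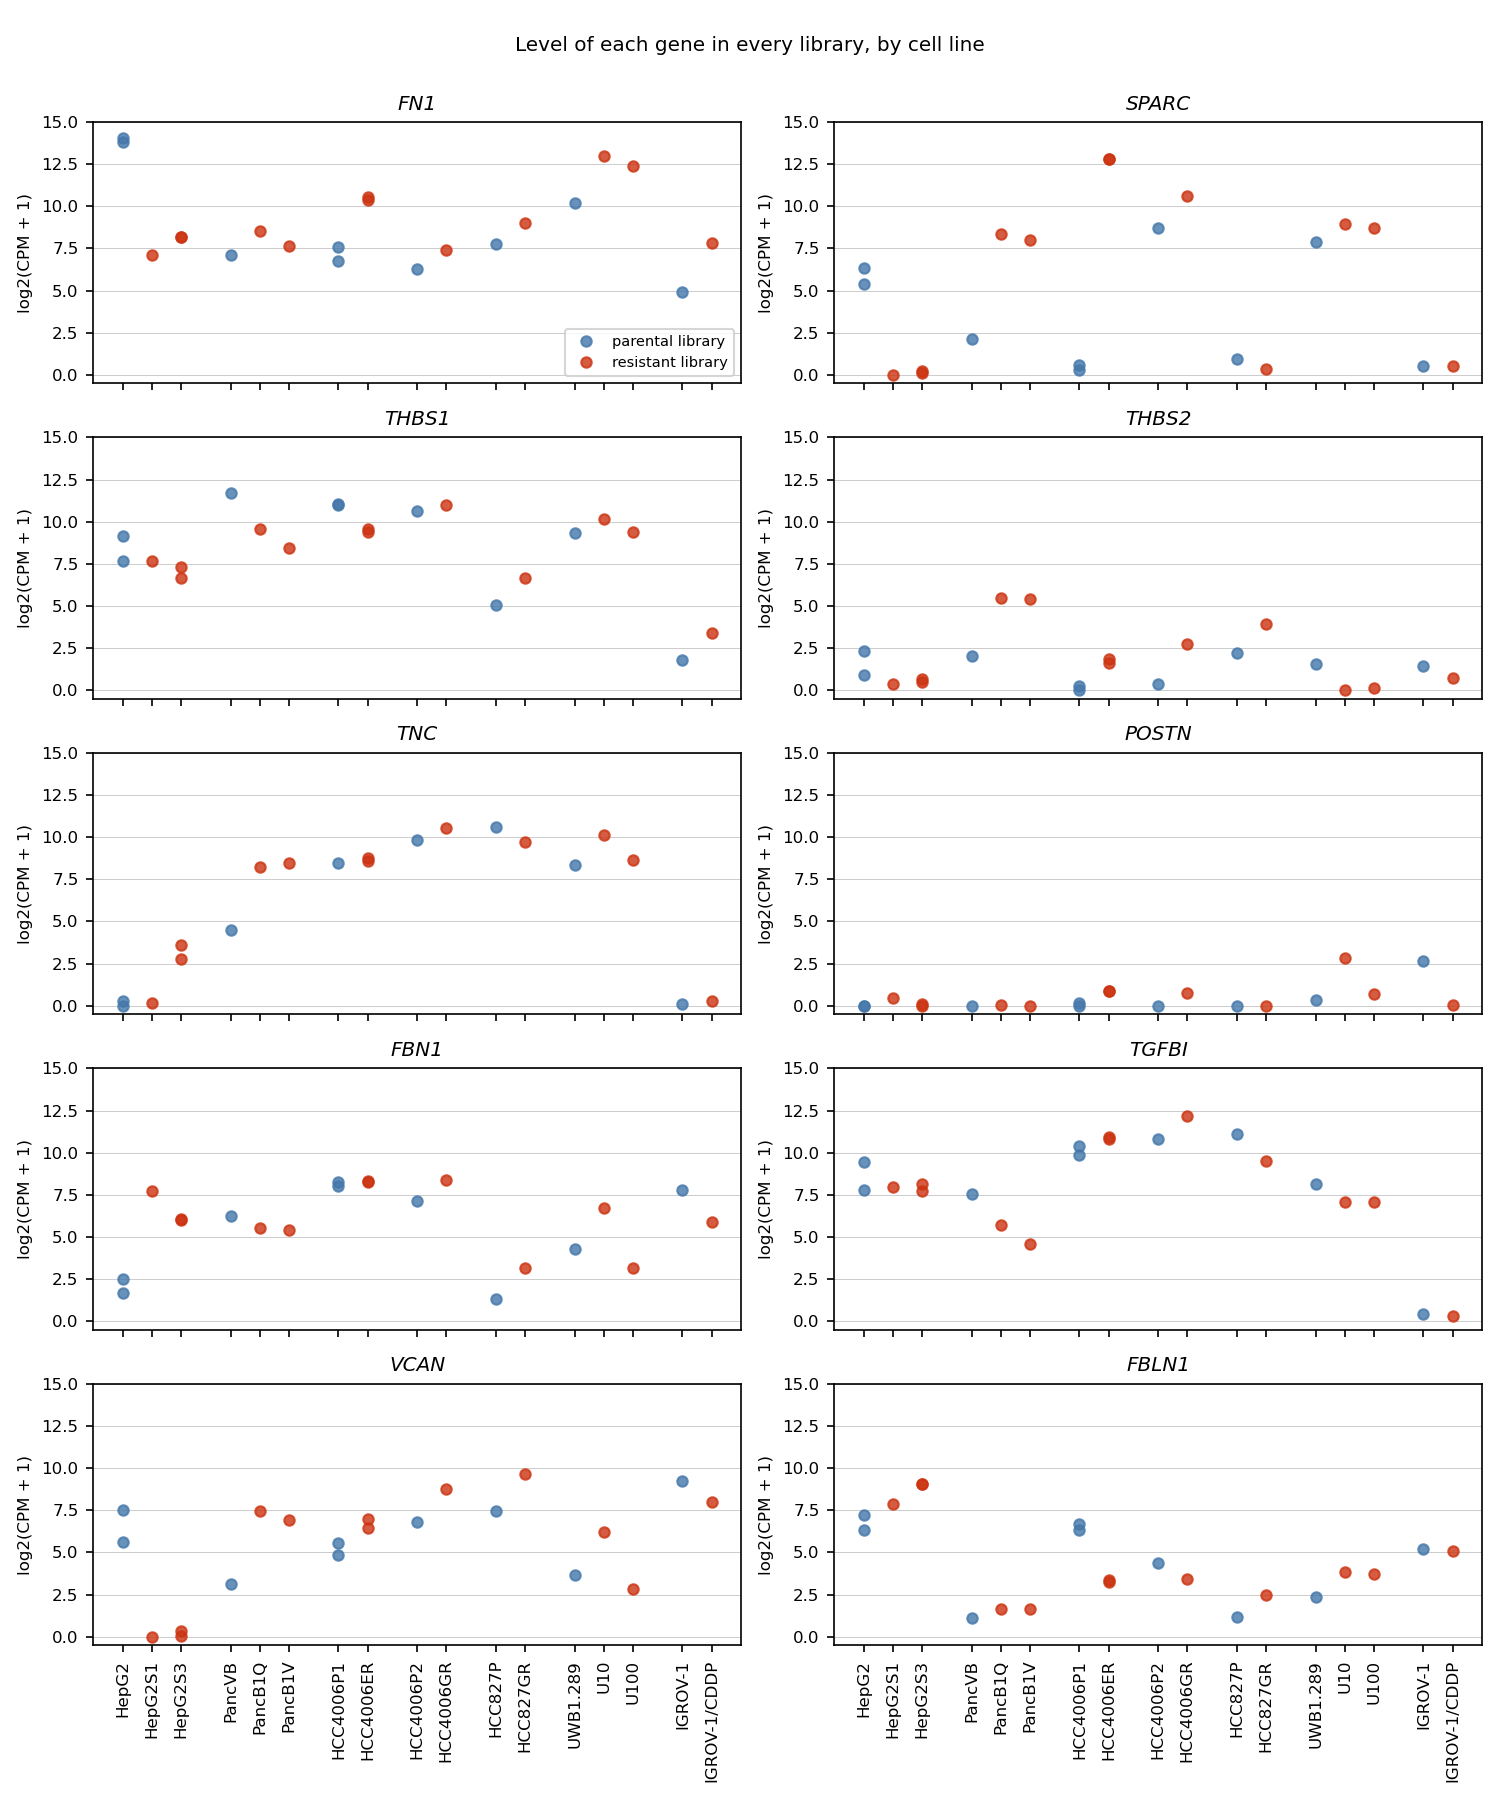
Level of each of the 10 genes on the log2(CPM + 1) scale (vertical axis) in the 17 cell lines (horizontal axis), with one point per library, parental in blue and resistant in red. FN1 is highest in HepG2 and SPARC in HCC4006ER, and POSTN stays near 0 in nearly all libraries.

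Each resistant line was next compared with its parent over all 10 genes, with a change of at least 2-fold on the log2(CPM + 1) scale as the limit and no test, since 8 of the 10 pairs lack replicates on at least one side. The shares for all genes that reached 1 CPM in either line of a pair are given beside each count, and 7 to 10 of the 10 genes were among them. In HepG2S1, 2 of the 10 genes were higher and 4 lower, against 25.5% and 18.4% of all genes, and in HepG2S3, 3 were higher and 5 lower, against 27.3% and 17.7%. The median change of all genes was 0.25 and 0.28 on the log2 scale in these pairs, and −0.09 and 0.00 with TMM-scaled library sizes, under which 1 gene was higher and 6 lower in HepG2S1 and 3 higher and 6 lower in HepG2S3, against 18.7% and 24.4%, and 21.7% and 22.3%, of all genes. Hence the shares of higher genes in the liver pairs were near or below the background, and those of lower genes were above it.

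In PancB1Q, 5 genes were higher (FN1, SPARC, THBS2, TNC and VCAN) and 2 lower (THBS1 and TGFBI), against 6.1% and 9.41% of all genes, or 8.79% and 6.76% with TMM-scaled library sizes. In PancB1V, 4 were higher (SPARC, THBS2, TNC and VCAN) and 2 lower (THBS1 and TGFBI), against 8.89% and 7.25%. In HCC4006ER, 4 were higher and 2 lower, against 11.8% and 11.7%. HCC4006GR had 6 higher (FN1, SPARC, THBS2, FBN1, TGFBI and VCAN) and 0 lower, against 7.75% and 7.47%. In this pair the 8 fibroblast markers summed to 29.4 CPM in HCC4006P2 and 165 CPM in HCC4006GR, with COL1A2 at 4.7 and 100 CPM, and their part was not tested. HCC827GR had 6 higher and 1 lower, against 10.6% and 7.67%. In U10 the counts were 7 higher and 2 lower, against 6.27% and 5.11%, and in U100 they were 2 higher and 3 lower, against 6.43% and 1.73%. For IGROV-1/CDDP they were 2 higher (FN1 and THBS1) and 3 lower (POSTN, FBN1 and VCAN), against 5.55% and 7.21%. Over all 100 changes, 41 were higher, 24 lower and 35 neither on the log2(CPM + 1) scale. That scale makes changes of low genes look smaller, and POSTN in HCC4006ER, 15.3-fold higher in CPM, was among the 35. In all 8 pairs outside the liver, the share of the 10 genes past 2-fold higher was above that of all genes. The share past 2-fold lower was also above that of all genes in each of these pairs except HCC4006GR. It rested on few genes, only 1 in HCC827GR against 7.67%, and 2 in HCC4006ER against 11.7%. In HCC4006GR, FBLN1 was 2.03-fold lower in CPM but did not reach the limit on the log2(CPM + 1) scale. In U100 and IGROV-1/CDDP more of the 10 genes were lower than higher. The 10 genes were chosen with earlier results of these data known. FN1, SPARC and VCAN also belong to the genes on which the study judged its lines. Shares above those of all genes are therefore no independent result. The shares of all genes also include low genes, whose changes that scale makes look smaller. The median change of the 10 genes ranged from −1.03 in HepG2S3 to 1.62 in U10 on the log2(CPM + 1) scale, where that of all genes was 0.28 and −0.02.

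**Figure D3:**
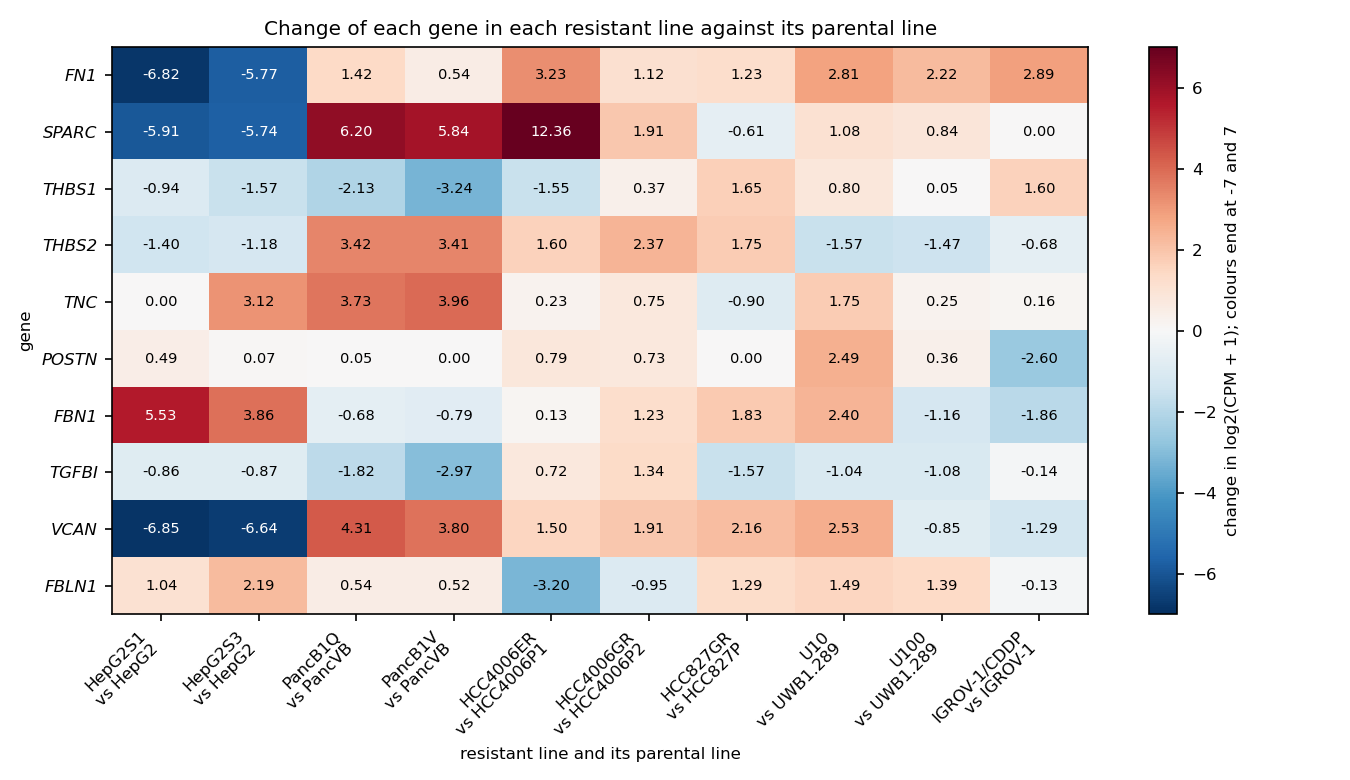
Change of each gene (rows) in each resistant line against its parental line (columns) as a difference of log2(CPM + 1), with the value in each cell and red for higher in the resistant line. The SPARC value of 12.36 in HCC4006ER lies beyond the colour scale, and FN1 is red in every column except the HepG2S1 and HepG2S3 columns.

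**Figure D4:**
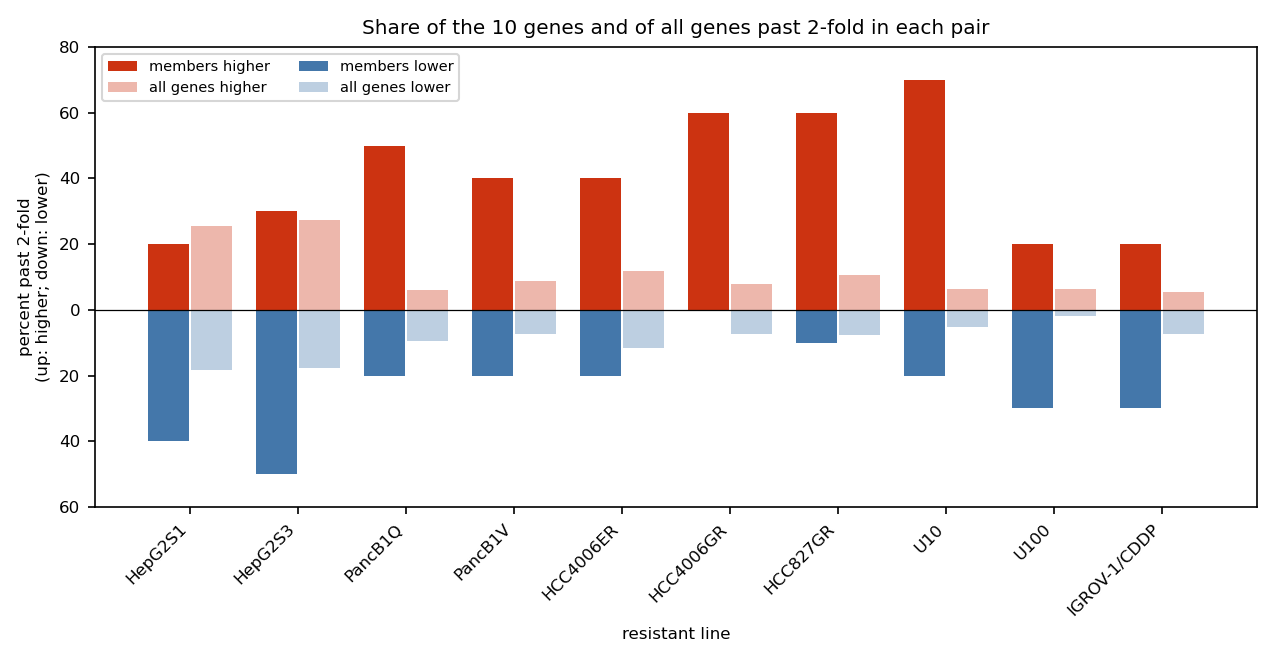
Percent of the 10 genes (dark bars) and of all genes reaching 1 CPM in either line (light bars) that were at least 2-fold higher (upward) or lower (downward) on the log2(CPM + 1) scale in each resistant line. The upward dark bar is highest in U10, where 7 of 10 genes were higher against 6.27% of all genes.

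U10 and U100 share the parent UWB1.289 and the drug, with 1 library each. FBN1 was at 104 CPM in U10 and 7.86 CPM in U100, VCAN at 72.6 and 6.10 CPM, TNC at 1115 and 393 CPM, and POSTN at 6.05 and 0.610 CPM. TGFBI (137 and 133 CPM) and FBLN1 (13.5 and 12.4 CPM) had overlapping intervals. The 8 fibroblast markers summed to 187 CPM in U10, of which THY1 gave 165 CPM, to 26.5 CPM in U100 and to 15.7 CPM in UWB1.289. The 3 endothelial markers summed to 89.0, 66.8 and 14.9 CPM, with CDH5 at 81.4, 43.9 and 9.03 CPM. The part of both lists in these differences was not tested.

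In the replicated pair HepG2S3 against HepG2, edgeR's quasi-likelihood test with Benjamini-Hochberg adjustment over 16929 genes called 3 of the 9 genes tested higher and 5 lower, against 31.4% and 32.1% of all genes. POSTN had too few counts to be tested. FN1 fell, with a log2 change of −6.09 ± 0.26 (SE, adjusted p = 6.5e-05), as did SPARC (−9.13 ± 0.60, adjusted p = 2.0e-04) and VCAN (−9.76 ± 1.06, adjusted p = 9.9e-04). TNC rose by 6.08 ± 0.88 (adjusted p = 0.00257), FBN1 by 3.89 ± 0.38 (adjusted p = 6.6e-04) and FBLN1 by 1.88 ± 0.32 (adjusted p = 0.00466). The thrombospondins passed more narrowly. THBS1 fell by 1.90 ± 0.53 (adjusted p = 0.0256) and THBS2 fell by 2.55 ± 0.78 (adjusted p = 0.0351), but without HepG2S3 replicate 1 the edgeR values were −1.58 (adjusted p = 0.0665) and −2.34 (adjusted p = 0.0954), and without HepG2S3 replicate 2 THBS2 also lost its call (adjusted p = 0.069). TGFBI did not pass, at −1.20 ± 0.55 (adjusted p = 0.111), but passed with DESeq2 (adjusted p = 0.042) and with a replicate block (adjusted p = 0.0264). Its value was −1.82, past the threshold, without HepG2 replicate 2 and −0.11, not past it, without HepG2 replicate 1. Each fit without a library leaves that line with 1 library, which is assumed to vary like the 2 of the other line. The fitted sizes depended on single libraries. TNC ranged from 5.08 without HepG2 replicate 1 to 11.04 without HepG2 replicate 2, VCAN from −11.90 without HepG2S3 replicate 1 to −8.53 without HepG2 replicate 2, and SPARC from −10.04 without HepG2S3 replicate 1 to −8.56 without HepG2 replicate 1. THBS1 ranged from −2.47 without HepG2 replicate 2 to −0.95 without HepG2 replicate 1, and THBS2 from −3.27 without HepG2 replicate 1 to −1.10 without HepG2 replicate 2. Beside these changes, 7 of 7 hepatocyte markers and 5 of 5 tested epithelial markers fell, and 3 of 5 tested fibroblast markers rose, DCN from 0.0136 to 345 CPM. Other epithelial and ductal markers rose, namely KRT7 from 1.03 to 2912 CPM (edgeR adjusted p = 6.0e-05), MUC1 from 0.0136 to 22.9 CPM (adjusted p = 7.3e-05) and MUC16 from 0.028 to 7.62 CPM (adjusted p = 2.8e-04), while SOX9 fell from 248 to 0.748 CPM (adjusted p = 2.6e-05). The part of these markers in the changes was not tested.

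For HCC4006ER against HCC4006P1, edgeR was run on 12791 genes outside the stretch without counts, and 6 of the 9 genes tested rose and 2 fell, against 24.1% and 24.9% of all genes. SPARC rose by 14.27 ± 0.33 on the log2 scale (adjusted p = 4.8e-06), FN1 by 3.32 ± 0.20 (adjusted p = 4.8e-05), THBS2 by 4.44 ± 0.72 (adjusted p = 0.00296), POSTN by 3.86 ± 0.74 (adjusted p = 0.00577), VCAN by 1.61 ± 0.21 (adjusted p = 0.00127) and TGFBI by 0.79 ± 0.13 (adjusted p = 0.00277). FBLN1 fell by 3.28 ± 0.13 (adjusted p = 1.3e-05) and THBS1 fell by 1.52 ± 0.19 (adjusted p = 9.4e-04). FBN1 did not pass, at 0.18 ± 0.11 (adjusted p = 0.22), and TNC was outside the fit. The estimates for THBS2 and POSTN rest on 0 to 4 parental counts, and they ranged from 3.33 to 8.58 and from 3.07 to 6.96 when HCC4006P1 replicate 1 or 2 was left out, and with the genes of the stretch kept in the fit both lost their calls (adjusted p = 0.1 and 0.0717). SPARC ranged from 13.60 to 15.20. Beside these changes, all 5 tested epithelial markers fell and all 6 tested fibroblast markers rose, among them LUM from 0.0791 to 115 CPM and COL3A1 from 0.0534 to 43.5 CPM. COL1A2, which lies in the stretch and was not tested, was at 0.154 CPM in HCC4006P1 replicate 2 and 1332 CPM in HCC4006ER, and the summed level of the 8 fibroblast markers went from 22.0 and 15.9 CPM to 1703 and 1462 CPM. Their part was not tested, and more cells of a kind and more RNA per cell cannot be told apart in bulk RNA.

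**Figure D5:**
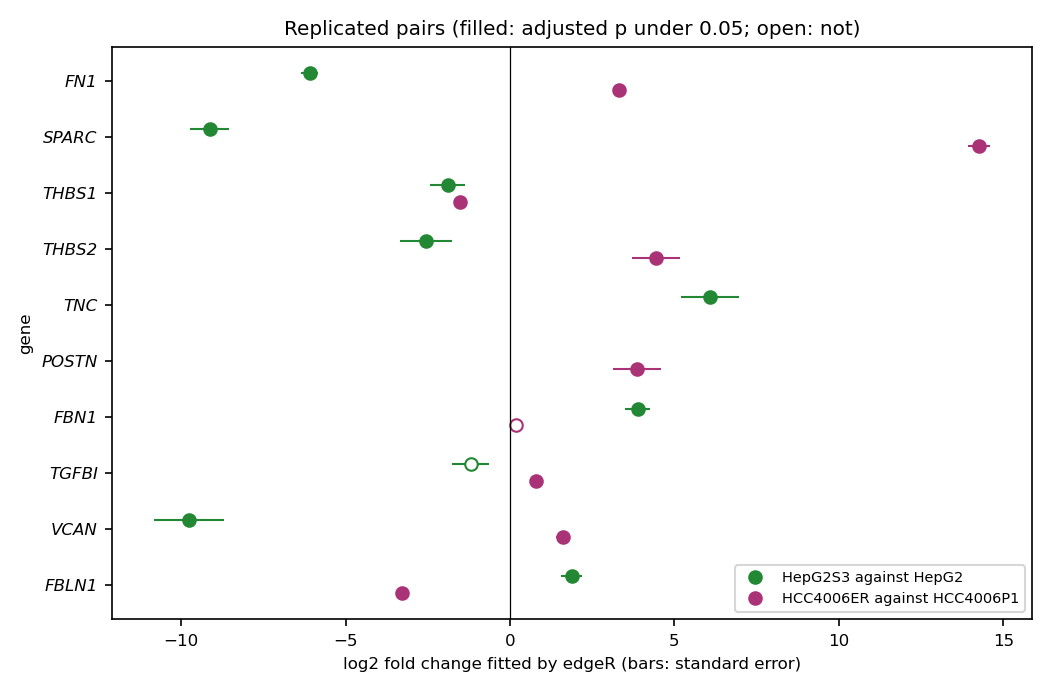
Log2 fold changes fitted by edgeR for the replicated pairs (horizontal axis, bars are standard errors), with one row per gene, filled points for an adjusted p under 0.05 and open points otherwise. FN1, SPARC, THBS2 and VCAN lie left of 0 in HepG2S3 and right of 0 in HCC4006ER, and THBS1 lies left of 0 in both.

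The difference between the changes of these pairs was tested directly, by the interaction term in edgeR over 14478 genes, of which 55.9% passed. Of the 9 genes tested, 7 passed. The change in HCC4006ER exceeded that in HepG2S3 by 23.36 ± 0.78 on the log2 scale for SPARC (adjusted p = 9.5e-08), by 11.34 ± 1.04 for VCAN (adjusted p = 2.9e-05), by 9.39 ± 0.32 for FN1 (adjusted p = 9.8e-08), by 6.98 ± 1.31 for THBS2 (adjusted p = 0.00184) and by 1.95 ± 0.61 for TGFBI (adjusted p = 0.0229). It was below that in HepG2S3 for FBN1 (−3.74 ± 0.39, adjusted p = 5.7e-05) and FBLN1 (−5.20 ± 0.38, adjusted p = 6.6e-06). THBS1 (0.34 ± 0.59, adjusted p = 0.672) and POSTN (0.49 ± 1.01, adjusted p = 0.721) did not pass.

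Over the 7 parental lines, with the counts of the resistant lines of a parent summed and the parental line as a block, 0 of the 10 genes and 0% of 19829 genes passed in edgeR. Of all genes, 920 had an unadjusted p under 0.05 but none of the 10 did, and DESeq2 called 102 genes, again none of the 10. FN1 had a change of 1.57 ± 0.99 on the log2 scale (adjusted p = 0.994), TNC of 1.52 ± 0.83, VCAN of 1.21 ± 1.33 and SPARC of 1.42 ± 2.21. On the log2(CPM + 1) scale, FN1 and TNC were above 0 in 6 of 7 parental lines, and VCAN, POSTN and FBN1 in 5. SPARC, THBS1, THBS2 and FBLN1 were above 0 in 4 and TGFBI in 2. These signs were taken without a floor, so some rest on few counts. For TNC, the IGROV-1 value was 0.16 (counting interval −0.22 to 0.52). The HepG2 value of TNC combined 0.00 for HepG2S1 with 3.12 for HepG2S3. For POSTN, the PancVB value of 0.02 came from 1 count in PancB1Q and 0 in PancB1V and PancVB. The HepG2 value of POSTN, 0.28, came from 4 counts in HepG2S1 and 3 in HepG2S3. The spread was wide, with an SD over the 7 parental lines of 5.72 for SPARC, 3.51 for VCAN and 3.26 for FN1. Without HepG2 the edgeR change of FN1 was 2.10 (adjusted p = 0.406) and that of VCAN 1.81 (adjusted p = 0.679). HCC4006P1 and HCC4006P2 carry the same cell line name, so the 7 parental lines are not fully independent. With these taken as 1 parental line, 0 of 20071 genes passed in edgeR.

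Other matrix genes moved in both directions in the replicated pairs. The counts that follow stand against 31.4% of all genes higher and 32.1% lower in HepG2S3, and 24.1% higher and 24.9% lower in HCC4006ER. Of 39 further matricellular and matrix glycoprotein genes, 32 were tested in HepG2S3, where 14 rose and 13 fell, with a median of −0.43 on the log2 scale against −0.01 for all genes. The largest rises were of EFEMP1, or fibulin-3 (0.0409 to 502 CPM, edgeR adjusted p = 4.7e-05), and FBN2, or fibrillin-2 (0.141 to 451 CPM, adjusted p = 2.6e-05), and the largest falls of SPP1, or osteopontin (2781 to 2.14 CPM, adjusted p = 0.00231), and COMP (2.04 to 0 CPM, adjusted p = 0.0019). In HCC4006ER, 11 of 25 tested rose and 7 fell, with a median of 0.22 against 0.01. FNDC1 (0.0791 to 28.2 CPM, edgeR adjusted p = 1.0e-05) and SMOC1, a relative of SPARC (0.238 to 38.1 CPM, adjusted p = 1.4e-05), rose most, and LTBP2 (271 to 33.2 CPM, adjusted p = 5.0e-05) and EMILIN1 (1.05 to 0.255 CPM, adjusted p = 0.00945) fell most. The EMILIN1 call was lost without either HCC4006ER library and with DESeq2.

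Among 8 chondroitin and leucine-rich proteoglycans and versican partners, 3 of 5 tested rose and 1 fell in HepG2S3, and 2 of 4 rose and 2 fell in HCC4006ER, again with few genes tested against those shares. DCN (decorin) and LUM (lumican) rose in both pairs. DCN went from 0 to 12.7 CPM and LUM from 0.0791 to 115 CPM in HCC4006ER (edgeR adjusted p = 1.6e-04 and 8.4e-06), and LUM from 0.028 to 36.5 CPM in HepG2S3 (adjusted p = 3.9e-05). BGN (biglycan) fell from 19.9 to 0.0312 CPM in HepG2S3 (adjusted p = 2.1e-04), and BCAN (18.8 to 6.45 CPM, adjusted p = 8.8e-04) and HAPLN3 (6.03 to 2.12 CPM, adjusted p = 0.00625, or 0.0514 with the genes of the stretch kept) fell in HCC4006ER. DCN and LUM are also on the fibroblast marker list. Of the proteases that cleave versican, 3 of 5 tested rose and 2 fell in HepG2S3 and 3 of 5 rose and 0 fell in HCC4006ER, beside the same shares of all genes and with few genes tested, led in both by ADAMTS5 (0 to 1.57 CPM, adjusted p = 0.00101, and 0 to 117 CPM, adjusted p = 1.4e-05). In HepG2S3 the others named by size were ADAMTS15 (0.0136 to 6.43 CPM), ADAMTS4 (4.28 to 0.367 CPM) and ADAMTS9 (1.77 to 0.287 CPM), whose call was lost without HepG2 replicate 2 and without either HepG2S3 library, and ADAMTS9 rose in HCC4006ER (0.104 to 2.93 CPM).

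Of 12 receptors for these proteins, 4 rose and 5 fell among 10 tested in HepG2S3, and 4 rose and 3 fell among 10 in HCC4006ER, beside 31.4% and 32.1%, and 24.1% and 24.9%, of all genes. ITGA5, the α subunit of the fibronectin receptor, rose in both, from 6.45 to 426 CPM (edgeR adjusted p = 9.9e-04) in HepG2S3 and from 40.2 to 116 CPM (adjusted p = 2.5e-04) in HCC4006ER. HepG2S3 thus had more RNA of this receptor subunit and less FN1 RNA. CD44, the hyaluronan receptor, rose from 0.0703 to 160 CPM in HepG2S3 and fell from 7323 to 483 CPM in HCC4006ER (adjusted p = 2.6e-05 and 1.3e-05). CD36, a thrombospondin receptor, fell from 27.0 to 1.08 CPM and SDC4 from 315 to 97.1 CPM in HepG2S3, while in HCC4006ER ITGA4 rose from 0.788 to 19.1 CPM and ITGB6, of the TGF-β-activating integrin αvβ6, fell from 59.8 to 0.484 CPM. ITGB1, the partner of ITGA5, did not pass in HepG2S3 (1261 to 1413 CPM, adjusted p = 0.653) or in HCC4006ER (1600 to 1801 CPM, adjusted p = 0.158).

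Of 7 genes of the TGF-β axis, 2 rose and 3 fell in HepG2S3, and 3 of 5 tested rose and 1 fell in HCC4006ER, against 31.4% and 32.1%, and 24.1% and 24.9%, of all genes. TGFBR2, the type II receptor, fell in both, from 603 to 63.9 CPM (edgeR adjusted p = 8.1e-05) and from 95.1 to 55.4 CPM (adjusted p = 0.00278). TGFB3 rose in both, from 1.71 to 5.93 CPM (adjusted p = 0.00376) and from 4.41 to 7.74 CPM (adjusted p = 0.0111), the latter call being lost without either HCC4006ER library. TGFB2 rose from 0.285 to 3.85 CPM in HepG2S3, and the inhibitor SMAD7 rose from 15.8 to 33.7 CPM in HCC4006ER. Over the 7 parental lines none of these lists had a gene that passed.

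The genes most like each of the 10 across the 17 lines were sought by Spearman's correlation of log2(CPM + 1) among 14602 genes with a mean of at least 1 CPM. The lines share parents and libraries, so these values are descriptions. The closest genes were ALG2 for FN1 (rho = 0.84), PCDHGB4 for SPARC (0.92), RTP4 for THBS1 (0.89), FLJ20373 for THBS2 (0.83), KIAA1217 for TNC (0.91), ENSG00000188223 for FBN1 (0.89), DHRS3 for TGFBI (0.88), LRRFIP1 for VCAN (0.86) and NIPSNAP1 for FBLN1 (0.90). POSTN was below the level needed. Among the genes themselves the closest were SPARC and THBS1 (0.60), TNC and TGFBI (0.58) and THBS2 and VCAN (0.56), FN1 was closest to SPARC (0.34), FBN1 to THBS1 (0.40) and FBLN1 to FBN1 (0.31).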

How the data were processed

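RNA sequencing of 7 parental and 10 resistant cell lines was analysed from 21 libraries. The authors deposited whole-number counts of reads per Ensembl gene for each library, not normalized. Per the labels, a stranded mRNA kit was used for every library, and the submitters' processing notes name Bowtie, TopHat, SAMtools and HTSeq with hg19. The methods also describe a 3′ end kit with STAR, and which library that concerns is not given in the sources used here. If libraries of a pair differed in kit, differences between lines would include it, which was not tested. Levels are not compared between genes, whose lengths differ. Of 53515 genes, 45100 were matched to a GENCODE annotation of GRCh37. Reads on no gene (5.24 to 14.0% of reads) stayed out of library sizes.

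CPM were computed from counts on genes, libraries of a line were averaged, and a change is the difference of log2(CPM + 1), a scale that makes changes of low genes look smaller. Intervals of levels are 95% Wilson intervals. Those of ratios set the lower limit of one line against the upper limit of the other, and the reverse, so they are wider than 95% intervals of a ratio. Both, like the floor of 3 counts, cover counting error only. Tests used edgeR 4.0.16 (TMM, filterByExpr, quasi-likelihood, Benjamini-Hochberg adjusted p under 0.05) in R 4.3.3. HCC4006P1 replicate 1 was left out of the fit over 7 parental lines. Alternatives used DESeq2 1.42.0, limma 3.58.1, other size factors, filters and pseudocounts, a replicate block, and each library left out in turn. The tests were tested on simulated counts. All 10 genes were named in every comparison. From the other lists the 2 largest rises and 2 largest falls past the threshold were named, except for 1 gene that is not reported here, and 4 of 122 listed genes were not analysed here. ITGB1 was named after its values were seen. The members and lists were chosen with earlier results of these data known. Other steps ran in Python 3.11.15 with pandas 2.3.3 and numpy 2.4.6. Promoter sequences are from RefSeq (GRCh38.p14) and were placed on GRCh37 by exact match.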

Additional observations from a re-analysis of the deposited data

Results flagged for a closer look

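The change of FN1 per parental line was lowest in HepG2, at −6.29 on the log2(CPM + 1) scale, and lay apart from those of the other 6 parental lines, of which the lowest was 0.98. POSTN was lowest in IGROV-1, at −2.60, and stood apart by the same measure. Unlike FN1, however, POSTN reached 1 CPM in only 2 lines. Its values for HepG2 (0.28), PancVB (0.02) and HCC827P (0.00) rest on 0 to 4 counts per line, so they could hardly lie far from 0. The gap to the nearest of the other values was 0.764 of the range for FN1 and 0.647 for POSTN, and chance gives gaps past the limit used in about 1 of 20 groups.

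For 7 of the 9 genes tested, the change in HCC4006ER differed from that in HepG2S3 in edgeR's test of the interaction. Of all 14478 genes tested, 55.9% passed the same test. The difference on the log2 scale was 9.39 for FN1, 23.36 for SPARC, 6.98 for THBS2, −3.74 for FBN1, 1.95 for TGFBI, 11.34 for VCAN and −5.20 for FBLN1. The sizes for SPARC, THBS2 and VCAN rest on groups with 0 to 10 counts per library and are not precise.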

How the results depend on the processing

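Replicate numbers of HepG2 and HepG2S3 are the letters of their cell line labels, and no label says that a number marks a shared culture or day. The correlation of deviations between same-numbered libraries was 0.0532 for HepG2 and HepG2S3 and 0.41 for HCC4006P1 and HCC4006ER. With the replicate number as a block, 9 in place of 8 genes passed in HepG2S3 (TGFBI, −0.97, adjusted p = 0.0264), and 8 in HCC4006ER and 7 for the difference between the pairs passed, as without it. The block moved all genes called from 10744 to 10561, from 6266 to 7787 and from 8094 to 8199.

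Between 6 and 9 genes passed in HepG2S3 and between 6 and 8 in HCC4006ER under all alternatives, 7 did so for the difference, and 0 over the 7 parental lines. With all genes kept in the HCC4006ER fit, all genes called fell to 3417 and THBS2 (adjusted p = 0.1) and POSTN (0.0717) lost their calls, and with each library left out in turn the count ranged from 4051 (without HCC4006ER replicate 1) to 8370. DESeq2 made TGFBI pass in HepG2S3 (adjusted p = 0.042) and called 102 genes over the 7 parental lines. THBS1, at −0.22 there, ranged from −0.61 to 0.18 with each parental line left out, being positive without HepG2 (0.09), PancVB (0.18) and HCC4006P1 (0.08), and was not called in any. The cause was not tested. Counts past 2-fold stayed within 1.5 times in every pair, and of the changes of single genes in single pairs 267 moved by less than the spread and 42 by more, 23 of them with a pseudocount of 0.1 CPM and 15 with TMM-scaled library sizes, and 0 called ones changed sign. Of the tested changes of single genes, 594 kept direction and call, 14 lost and 3 gained a call, and the 3 of THBS1 changed sign.

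Libraries with 1 replicate give no spread, so differences in 8 pairs have no replicate check, and folds on 1 to 3 counts have wide counting intervals.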
